A study of Vaccinium corymbosum with 9 samples.

Results

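Ripe blueberry fruit was compared with fruit that had just begun to color, across all genes expressed in either stage. The comparison sets 3 mature libraries (stage 3) against 3 color break libraries (stage 2), 6 of the 9 libraries of the series. The other 3 come from early green fruit (stage 1), and their values are given beside the results but enter no test here. All fruit was 'Bluecrop', a highbush cultivar of Vaccinium corymbosum grown in an orchard with no treatment, and the submitters' design text calls the replicates of a stage independent. The series was set up to follow the formation of cuticular wax. No label says how many berries or plants went into a replicate, or whether skin, flesh and seeds were parted, so each library is read as whole fruit. Of 93716 genes in the deposited table, the 40996 (43.7%) with at least 1 FPKM in at least 3 of the 6 libraries were tested. FPKM is a fragment count scaled to transcript length and to library depth, so it can be compared between genes as a level per length.

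A blueberry is covered by a cuticle, a sheet of cutin filled and coated with wax. Its wax consists of very-long-chain fatty acid derivatives and triterpenoids, and the crystals on its surface give ripe berries their pale bloom. From color break on, the skin fills with anthocyanins while the flesh takes up sugar, loses acid and softens, and chloroplasts lose their photosynthetic apparatus. Highbush blueberry is polyploid, so most genes exist as several closely related copies.

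The estimated counts of the 6 libraries summed to 53154398 to 67604266, and the limit that a count of 0 allows, 3 counts, came to 0.0444 to 0.0564 CPM and covers counting error only. Over the tested genes, log2(FPKM + 1) correlated at 0.957 to 0.970 between the stages, at 0.975 to 0.981 within mature and at 0.962 to 0.983 within color break. Color break replicate 3 stood apart. It correlated with the other color break libraries at 0.962 and 0.963, no better than with the mature ones at 0.959 to 0.963, and it lay at -54.4 on the second principal component, where the other 5 libraries lay between -1.8 and 19.2. The first component (36.3% of the variance) put it at -7.3, between color break replicates 1 and 2 at -33.9 and -37.4 and the mature libraries at 18.2 to 38.5. Genes for defence proteins took 0.882% of its counts, against 0.377% and 0.383% in color break replicates 1 and 2 and 0.496% to 0.497% in mature libraries. Results are therefore given with and without it. Leucoanthocyanidin dioxygenase, the last step to colored anthocyanidins, separated green fruit from the later stages but does not check the color break and mature labels, since these overlapped: it summed to 9.92, 9.71 and 9.21 FPKM in green, 1620, 1838 and 1858 in color break and 1659, 1627 and 1352 in mature libraries.

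Between color break and maturity 373 genes changed, 0.910% of those tested. Of these, 209 (0.510%) rose and 164 (0.400%) fell. A gene was called where edgeR's quasi-likelihood test gave a Benjamini-Hochberg adjusted p under 0.05 and the change was at least 2-fold. The median log2 change over all genes was -0.004, and the central 50% of genes lay between -0.18 and 0.16. Changes were small in most called genes too: their median was 1.45 on the log2 scale among rises and -1.29 among falls, and 45 rises and 21 falls exceeded 4-fold. In the higher stage, 38 rises and 35 falls reached 10 FPKM. The median level in that stage was 4.0 FPKM for called genes and 4.33 for all genes tested. The called genes together took 0.297% of all counts at color break and 0.331% at maturity. In bulk fruit tissue, fewer cells of a type and less RNA per cell cannot be told apart, and a shift between skin, flesh and seed cannot be told apart from a change within one of them.

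The number of calls depended on every library. It was 206, 133 and 627 without color break replicates 1, 2 and 3 in turn, and 95, 131 and 169 without mature replicates 1, 2 and 3 in turn. Without color break replicate 3 there were 379 rises and 248 falls, which held 171 of the 209 rises and 132 of the 164 falls called with it. In the 6-library fit the adjusted p alone, with no demand on fold, was met by 1549 genes (3.78%), of which 666 (1.62%) rose and 883 (2.15%) fell. Those 1549 became 532, 327 and 2437 without color break replicates 1, 2 and 3 in turn and 196, 255 and 369 without mature replicates 1, 2 and 3 in turn. All 373 called genes had the 3 libraries of one stage above the 3 of the other, as had 6415 genes (15.6%) with mature above and 5097 (12.4%) with mature below among all tested. Of 45 called genes described below that were followed one by one, 17 kept their call whichever library was left out, and none changed direction in any alternative.

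**Figure D1:**
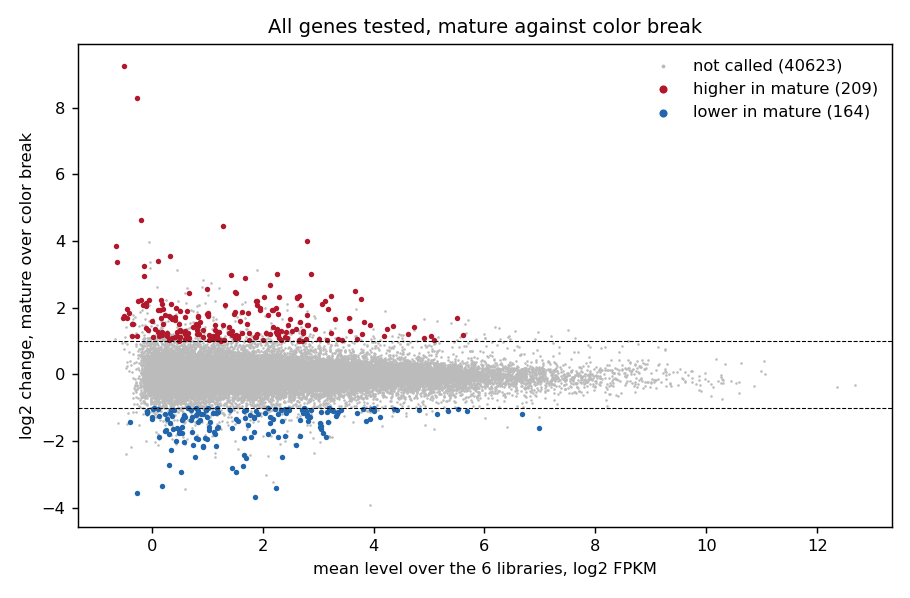
Each point is 1 of the 40996 genes tested, with its mean level over the 6 libraries in log2 FPKM on the x axis and the log2 change of mature over color break on the y axis. The 209 genes called higher are red and the 164 called lower are blue, and the dashed lines mark a 2-fold change. Called genes had a median level of 4.0 FPKM in the higher stage, against 4.33 over all genes tested.

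Genes with the same description were not called in opposite directions. The 340 called genes with a description in the annotation carried 250 different descriptions, and 61 descriptions were held by at least 2 called genes, 151 genes in all. In none of these 61 groups was one copy called higher and another lower. For 5 descriptions all 4 tested genes rose, among them the phosphate transporters described below. Near-identical copies can share reads, so their values may not be independent, and the division of reads between them is uncertain.

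In wax chain elongation 9 genes rose and none fell. Of 50 tested genes for the enzymes of the fatty acid elongase complex, 9 were called higher and 41 were not called, with a median log2 change of 0.25 against -0.004 over all genes. The rises are 18.0% of the list, against 0.510% of all genes. All 9 belong to 3-ketoacyl-CoA synthase (KCS), the condensing enzyme that sets chain length, of which 30 genes were tested, and they carry 5 descriptions. The count of 9 became 3, 3 and 9 without color break replicates 1, 2 and 3 in turn, and 2, 5 and 7 without mature replicates 1, 2 and 3 in turn, and without color break replicate 3 a single gene of the list fell. The ketoacyl-CoA reductase, dehydratase and enoyl-CoA reductase genes that complete each elongation round gave no call.

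The largest KCS rises came from a pair of copies. VaccDscaff794-augustus-gene-0.7 (3 exons, bases 16221 to 21532 of scaffold 794) stood at 0.779, 0.594 and 1.19 FPKM in color break replicates 1 to 3 and at 5.26, 4.77 and 4.43 in mature replicates 1 to 3. The groups were far apart, with each mature library over 3 times the highest color break value, and in green fruit the gene was higher still at 12.6, 13.2 and 12.4 FPKM. Its log2 change was 2.47 ± 0.25 (adjusted p = 0.0078), and 2.80 without color break replicate 3. The copy VaccDscaff13-processed-gene-97.14 (3 exons, bases 9746629 to 9751742 of scaffold 13) gave 2.44 ± 0.24 (adjusted p = 0.0067), from 0.877 ± 0.247 to 4.84 ± 0.865 FPKM (SD, n = 3). Both kept their call whichever library was left out.

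Other KCS genes rose to higher levels by smaller factors. VaccDscaff8-processed-gene-335.15 (3 exons, bases 33583159 to 33586189 of scaffold 8) stood at 2.45, 2.6 and 2.93 FPKM at color break and 6.79, 8.76 and 5.17 at maturity, with no overlap, and rose by 1.35 ± 0.19 (adjusted p = 0.016). That call was lost without color break replicate 1, color break replicate 2 or mature replicate 1 (adjusted p up to 0.073). A gene annotated by its GO terms with fatty acid elongase activity and wax biosynthesis, VaccDscaff20-processed-gene-127.33 (2 exons, bases 12751584 to 12754015 of scaffold 20), rose from 13.6, 13.7 and 16.6 to 38, 35.3 and 29.9 FPKM. Its log2 change was 1.21 ± 0.13 (adjusted p = 0.0078), it kept its call without each library, and it is listed at 0 in all 3 green libraries. The most abundant KCS gene did not pass: VaccDscaff24-augustus-gene-329.18 (3 exons, bases 32890614 to 32896905 of scaffold 24) stood at 124, 140 and 101 FPKM at color break and 155, 150 and 119 at maturity, overlapping, with a log2 change of 0.20 ± 0.14 (adjusted p = 0.47). Summed over all 72 annotated KCS genes, FPKM was 399, 444 and 344 at color break and 581, 568 and 463 at maturity, and 395, 417 and 411 in green fruit. Every mature sum lay above every color break sum, an exact two-sided permutation p of 0.1, which is the smallest that 3 against 3 can give.

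Among cutin genes 4 rose. Of 9 tested genes of cutin synthesis 4 (44.4%, against 0.510% rises among all genes) were called higher and none lower, with a median of 0.73. Of these, 3 are glycerol-3-phosphate acyltransferases (GPAT), which join fatty acids to glycerol on the way to cutin, out of 6 tested. The most abundant of the 3, VaccDscaff17-augustus-gene-63.26 (2 exons, bases 6306793 to 6311596 of scaffold 17), stood at 9.54, 8.68 and 6.78 FPKM at color break and 20.3, 22.1 and 15.9 at maturity, against 5.04, 4.52 and 4.81 in green fruit. The groups did not overlap, and it rose by 1.20 ± 0.16 (adjusted p = 0.014), a call lost without color break replicate 2, mature replicate 1 or mature replicate 2. The copy VaccDscaff27-augustus-gene-30.24 (2 exons, bases 3001167 to 3005793 of scaffold 27) rose by 1.23 ± 0.16 (adjusted p = 0.013) from 3.77, 4.71 and 3.25 to 9.97, 10.2 and 7.68 FPKM, and lost its call without color break replicate 1 or mature replicate 1 or 2. The last of the 3, VaccDscaff45-augustus-gene-35.38, rose by 1.22 ± 0.15 (adjusted p = 0.011) and lost its call without mature replicate 1. These 3 share 1 description and count as near-copies. The most abundant gene of the list, the GPAT VaccDscaff22-augustus-gene-19.24, was not called. It stood at 19.7, 23.3 and 21.2 FPKM at color break and 26, 24.3 and 21.1 at maturity, overlapping (0.13 ± 0.10, adjusted p = 0.5). The list's count of 4 became 2, 3 and 4 without color break replicates 1, 2 and 3 in turn, and 0, 1 and 3 without mature replicates 1, 2 and 3 in turn. The remaining call was VaccDscaff34-augustus-gene-70.30, annotated as an omega-hydroxypalmitate O-acyltransferase and with suberin biosynthesis, at 0.85, 1.27 and 0.579 FPKM at color break and 2.77, 3.04 and 1.99 at maturity.

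Of 24 genes with the GO term for cutin biosynthesis, 5 (20.8%, against 0.510% rises among all genes) rose and none fell (median 0.57), and 3 of the 5 are the GPAT genes. The other two, VaccDscaff26-augustus-gene-56.34 and VaccDscaff29-augustus-gene-55.29, are copies annotated with acyltransferase activity. The second stood at 1.2, 1.69 and 2.04 FPKM at color break, 4.05, 3.8 and 3.51 at maturity and 11.8, 14.2 and 12 in green fruit, and rose by 1.18 ± 0.19 (adjusted p = 0.022). This count of 5 became 2, 2 and 5 without color break replicates 1, 2 and 3 in turn, and 0, 1 and 4 without mature replicates 1, 2 and 3 in turn. Outside the lists, a protein named in the table as a GDSL-like lipase rose too. GDSL lipases are a large family of esterases to which the enzyme that polymerizes cutin belongs, and whether this gene is that enzyme is not annotated. VaccDscaff37-augustus-gene-13.28 (6 exons, bases 1354960 to 1367625 of scaffold 37) stood at 5.02, 7.42 and 3.89 FPKM at color break and 20.2, 17.7 and 16 at maturity, all mature libraries more than 2 times any color break library. It rose by 1.70 ± 0.24 (adjusted p = 0.021), and lost its call without color break replicate 1 or any one mature library. A cytosolic glycerol-3-phosphate dehydrogenase, the enzyme that makes the glycerol-3-phosphate GPAT uses, rose by 1.37 ± 0.16 (adjusted p = 0.0095). Its gene VaccDscaff18-augustus-gene-376.35 (10 exons, bases 37600451 to 37604683 of scaffold 18) stood at 5.27, 4.13 and 3.4 FPKM at color break and 11.1, 10.2 and 12.3 at maturity, and it kept its call without each library.

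**Figure D2:**
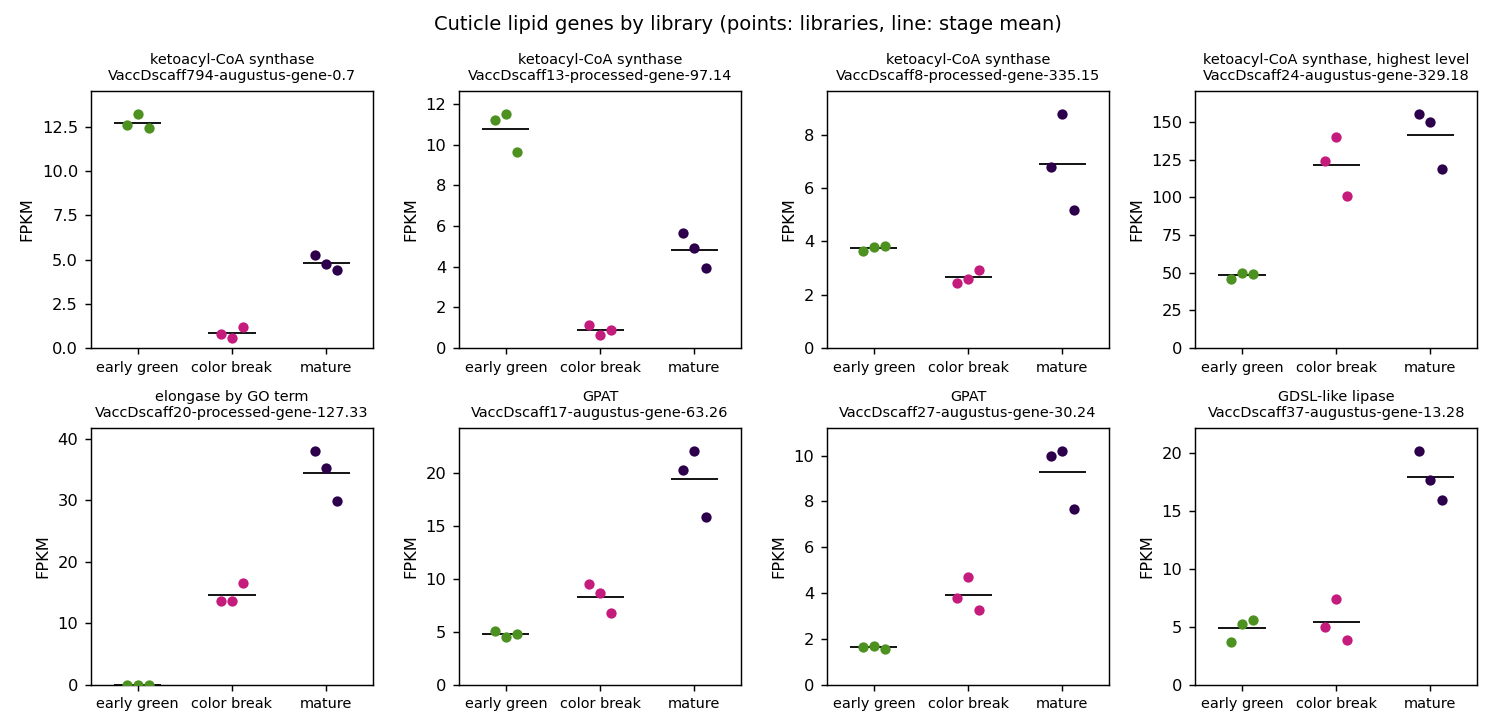
FPKM of 8 cuticle lipid genes in the 9 libraries, with stages on the x axis, points for libraries and lines for stage means. In 7 of the panels the 3 mature libraries lie above the 3 color break libraries, and in that of the most abundant ketoacyl-CoA synthase gene, at 121 FPKM on average at color break and 141 at maturity, they overlap.

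The remaining cuticle lists held 0 to 4 calls each. None of 15 long-chain acyl-CoA synthetase genes, which activate fatty acids, was called, and 1 rose at the adjusted p alone. Of wax modification, the step to alkanes and esters, 2 genes were tested and neither was called. Their most abundant member, the CER1-type aldehyde decarbonylase VaccDscaff37-augustus-gene-293.17, stood at 99.3, 99.1 and 109 FPKM at color break and 114, 110 and 95.9 at maturity. Of 27 ABCG transporters, some of which export cuticle lipids, 2 copies rose: VaccDscaff38-augustus-gene-182.23 from 0.785, 0.808 and 1.1 to 2.57, 2.59 and 4.27 FPKM (1.78 ± 0.25, adjusted p = 0.014) and VaccDscaff6-snap-gene-187.23 by 1.61 ± 0.28. They are 7.41% of the list, against 0.510% rises among all genes tested. That count became 1, 0 and 4 without color break replicates 1, 2 and 3 in turn, and 1, 1 and 1 without mature replicates 1, 2 and 3 in turn. One of 29 genes of triterpenoid synthesis rose, the squalene epoxidase VaccDscaff34-processed-gene-156.4 at 1.85, 2.06 and 1.59 FPKM at color break and 4.4, 5.39 and 3.32 at maturity, far below its 15.7, 15.8 and 15.9 in green fruit (1.24 ± 0.19, adjusted p = 0.019). That count of 1, 3.45% of the list against 0.910% of all genes called, became 0, 1 and 2 without color break replicates 1, 2 and 3 in turn, and 0, 0 and 1 without mature replicates 1, 2 and 3 in turn, and a count of 1 need not be the same gene. All 13 annotated squalene epoxidase genes summed to 68.8, 65.4 and 65.2 FPKM at color break and to less, 57.7, 62.2 and 57.9, at maturity (exact p = 0.1, the smallest possible). At the adjusted p alone 4 genes of the triterpenoid list rose and 2 fell, and without mature replicate 1 the counts were 0 and 0. In plastid fatty acid synthesis 1 of 67 genes fell, the acyl-ACP thioesterase VaccDscaff43-snap-gene-57.35 (-1.62 ± 0.27, adjusted p = 0.022), from 1.51, 1.93 and 2.76 to 0.738, 0.612 and 0.671 FPKM. The share, 1.49%, is near the 0.910% of all genes called. That count of 1 became 1, 0 and 1 without color break replicates 1, 2 and 3 in turn, and 0, 0 and 0 without mature replicates 1, 2 and 3 in turn. Among genes with GO terms, 4 of 48 for wax biosynthesis rose, 1 of 17 for suberin biosynthesis rose and none of 25 for cuticle development was called, with no fall in any of the 3 sets. These rises are 8.33% of the wax set and 5.88% of the suberin set, against 0.510% of all genes. The 4 became 4, 4 and 4 without color break replicates 1, 2 and 3 in turn, and 3, 3 and 5 without mature replicates 1, 2 and 3 in turn. The 1 of the suberin set became 0, 1 and 1 without color break replicates 1, 2 and 3 in turn, and 0, 0 and 0 without mature replicates 1, 2 and 3 in turn.

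No pigment gene of the lists changed by 2-fold between the stages. None of 28 early flavonoid, 21 flavonoid hydroxylation, 8 late anthocyanin or 42 phenylpropanoid entry genes was called at 2-fold. None of 50 glutathione S-transferase genes, a family with members that carry anthocyanins to the vacuole, was called either. The 4 pigment lists had median log2 changes of -0.22, 0.02, -0.24 and -0.11. At the adjusted p alone 2 early flavonoid genes, both for chalcone isomerase, fell and none rose. These 2 became 0, 0 and 2 without color break replicates 1, 2 and 3 in turn, and 0, 0 and 0 without mature replicates 1, 2 and 3 in turn. The early flavonoid enzymes, which build the flavonoid skeleton, summed to 4747, 5450 and 4847 FPKM at color break and 4721, 4737 and 3810 at maturity, against 129, 133 and 132 in green fruit. The stages did not overlap, by 4747 against 4737 FPKM, with color break replicate 2 highest and mature replicate 3 lowest, and the exact permutation p was 0.1, the smallest possible. The late anthocyanin enzymes summed to 2083, 2337 and 2340 FPKM at color break and 2097, 2058 and 1712 at maturity, overlapping (exact p = 0.2). Among single genes the chalcone synthase VaccDscaff4-processed-gene-104.3 stood at 754, 903 and 732 FPKM at color break and 795, 796 and 626 at maturity (-0.13 ± 0.12, adjusted p = 0.59). The leucoanthocyanidin dioxygenase VaccDscaff43-augustus-gene-236.29 stood at 843, 933 and 961 FPKM at color break and 852, 833 and 682 at maturity (-0.23 ± 0.10, adjusted p = 0.23).

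One gene of the branch to proanthocyanidins fell, and a MYB regulator was lower at maturity with a call that rests on all 6 libraries. The gene named in the table as transcription factor MYB1, VaccDscaff13-snap-gene-106.36 (2 exons, bases 10558734 to 10561795 of scaffold 13), the most abundant of 66 MYB genes, stood at 137, 168 and 136 FPKM at color break and 106, 101 and 79 at maturity, against 0.134, 0.736 and 0.412 in green fruit. The stages did not overlap, and it fell by 0.65 ± 0.13 on the log2 scale at the adjusted p alone (adjusted p = 0.04, 0.15 with all 9 libraries in the fit). It missed the threshold without any one of the 6 libraries, at an adjusted p of 0.051 to 0.11. No MYB gene was called at 2-fold, and without color break replicate 3 a single one rose. Of 6 proanthocyanidin genes 1 fell, the leucoanthocyanidin reductase VaccDscaff28-augustus-gene-227.23, from 2.32, 2.15 and 1.81 to 1.12, 0.789 and 0.826 FPKM (-1.21 ± 0.21, adjusted p = 0.025). That count of 1 became 0, 0 and 2 without color break replicates 1, 2 and 3 in turn, and 0, 0 and 0 without mature replicates 1, 2 and 3 in turn. The monolignol list, of enzymes on the route to lignin, gave no call among 53 genes (median -0.24), and 1 fall without color break replicate 3. It summed to 3569, 4002 and 3861 FPKM at color break, 3412, 3423 and 2885 at maturity and 832, 827 and 798 in green fruit. Most of the sum at color break and maturity came from caffeoyl-CoA O-methyltransferase, at 2495, 2831 and 2829 FPKM at color break, 2359, 2395 and 1942 at maturity and 159, 157 and 148 in green fruit, whereas cinnamyl alcohol dehydrogenase, the last enzyme of the route, stood at 78.3, 83 and 80.8, 87.5, 92.2 and 86.4 and 133, 133 and 131 FPKM in the same order. The list is therefore not read as a marker of lignified cells.

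Among sugar genes 8 rose, 7 of them by less than 2-fold. Of 70 genes of sugar metabolism and transport 1 rose and none fell at 2-fold, while 8 rose and none fell at the adjusted p alone (median 0.11). The share at 2-fold, 1.43%, is near the 0.910% of all genes called, whereas at the adjusted p alone 1.62% of all genes rose. These 8 became 6, 5 and 14 without color break replicates 1, 2 and 3 in turn, and 3, 4 and 5 without mature replicates 1, 2 and 3 in turn. Sucrose-phosphate synthase, which makes sucrose from hexose phosphates, held 3 of the 8 among its 8 tested genes. Its summed FPKM was 148, 140 and 147 at color break and 219, 217 and 231 at maturity, and 111, 109 and 105 in green fruit, with no overlap (exact p = 0.1, the smallest possible). SWEET transporters, which let sugars cross membranes, summed to 2948, 2709 and 3663 FPKM at color break and 4075, 4019 and 4266 at maturity, and to 265, 274 and 306 in green fruit. The most abundant of them was VaccDscaff102-augustus-gene-4.44 (6 exons, bases 401978 to 406354 of scaffold 102), at 1313, 1201 and 1610 FPKM at color break and 1775, 1736 and 1841 at maturity. Its stages did not overlap, but its log2 change of 0.35 ± 0.11 did not pass (adjusted p = 0.12), whereas without color break replicate 3 the value was 0.49 (adjusted p = 0.0078). The gene called at 2-fold was a SWEET gene near the limit of detection, VaccDscaff36-augustus-gene-42.34, at 0.133, 0 and 0.0486 FPKM at color break and 1.12, 1.32 and 2.62 at maturity.

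Starch genes held 1 call and acid genes none. Of 73 starch genes 1 was called at 2-fold, a share of 1.37%, near the 0.910% of all genes called. The call was a rise of the ADP-glucose pyrophosphorylase VaccDscaff30-augustus-gene-126.31 (15 exons, bases 12667855 to 12674975 of scaffold 30), which makes the precursor of starch. It stood at 0.179, 0.232 and 0.0945 FPKM at color break and 1.53, 1.45 and 1.95 at maturity, rose by 3.25 ± 0.32 (adjusted p = 0.0073) and kept its call without each library. The most abundant starch gene, the alpha-amylase VaccDscaff12-augustus-gene-92.40, went the other way from 179, 163 and 180 to 129, 131 and 130 FPKM, a fall of 0.44 ± 0.06 on the log2 scale at the adjusted p alone (adjusted p = 0.014). The amylase missed the threshold without color break replicate 1 or any one mature library (adjusted p of 0.052 to 0.076). At the adjusted p alone the list held 8 rises and 4 falls, while among all genes 1.62% rose and 2.15% fell. In the list 55 of 73 tested genes had a positive log2 change (median 0.14, against -0.004 over all genes). The 8 rises became 1, 2 and 12 without color break replicates 1, 2 and 3 in turn, and 1, 3 and 1 without mature replicates 1, 2 and 3 in turn. The 4 falls became 2, 2 and 4 without color break replicates 1, 2 and 3 in turn, and 0, 0 and 1 without mature replicates 1, 2 and 3 in turn. None of 117 genes of organic acid metabolism, 50 proton pump genes or 47 aquaporin genes was called at 2-fold, with medians of 0.09, -0.03 and -0.04. The most abundant acid gene, the phosphoenolpyruvate carboxykinase VaccDscaff41-augustus-gene-12.13, stood at 500, 461 and 531 FPKM at color break and 607, 623 and 621 at maturity (0.29 ± 0.07, adjusted p = 0.062).

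In trehalose metabolism 3 phosphatase genes rose and 4 synthase genes fell. Trehalose 6-phosphate, made by trehalose-phosphate synthase and removed by trehalose-phosphatase, is a signal of sugar status in plants. These genes were picked after their values were seen. Of 4 tested phosphatase genes 3 rose and none fell, and of 21 synthase genes 4 fell and none rose. For comparison, 0.510% of all genes tested rose and 0.400% fell. The 3 rises share 1 description and count as near-copies, and so do the 4 falls. Summing genes of the same description left 1 rise and 1 fall. The phosphatase VaccDscaff38-snap-gene-84.29 (12 exons, bases 8450448 to 8454235 of scaffold 38) stood at 11.7, 10.1 and 11.9 FPKM at color break and 23.5, 22.6 and 29.4 at maturity, and rose by 1.14 ± 0.12 (adjusted p = 0.0079). Its copy VaccDscaff37-augustus-gene-226.21 rose from 3.96, 3.11 and 3.99 to 9.62, 9.46 and 12.4 FPKM by 1.48 ± 0.15 (adjusted p = 0.0076), and both kept their call without each library. The 28 annotated phosphatase genes summed to 22.9, 20.1 and 23.5 FPKM at color break and 45, 46.2 and 57.7 at maturity, and to 30.4, 36.8 and 30.6 in green fruit. The synthase VaccDscaff25-snap-gene-274.23 (5 exons, bases 27433499 to 27442060 of scaffold 25) fell from 10.9, 11.1 and 14.8 to 5.37, 5.85 and 6 FPKM (-1.12 ± 0.13, adjusted p = 0.01), which missed the 2-fold limit at -0.95 without color break replicate 3 and was not called without mature replicate 1. The 3 rises stayed at 3 without each of the 6 libraries, while the 4 falls became 3, 2 and 2 without color break replicates 1, 2 and 3 in turn, and 1, 2 and 2 without mature replicates 1, 2 and 3 in turn. The synthase sum hardly differed, at 167, 166 and 177 FPKM at color break and 154, 166 and 161 at maturity (exact p = 0.2).

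**Figure D3:**
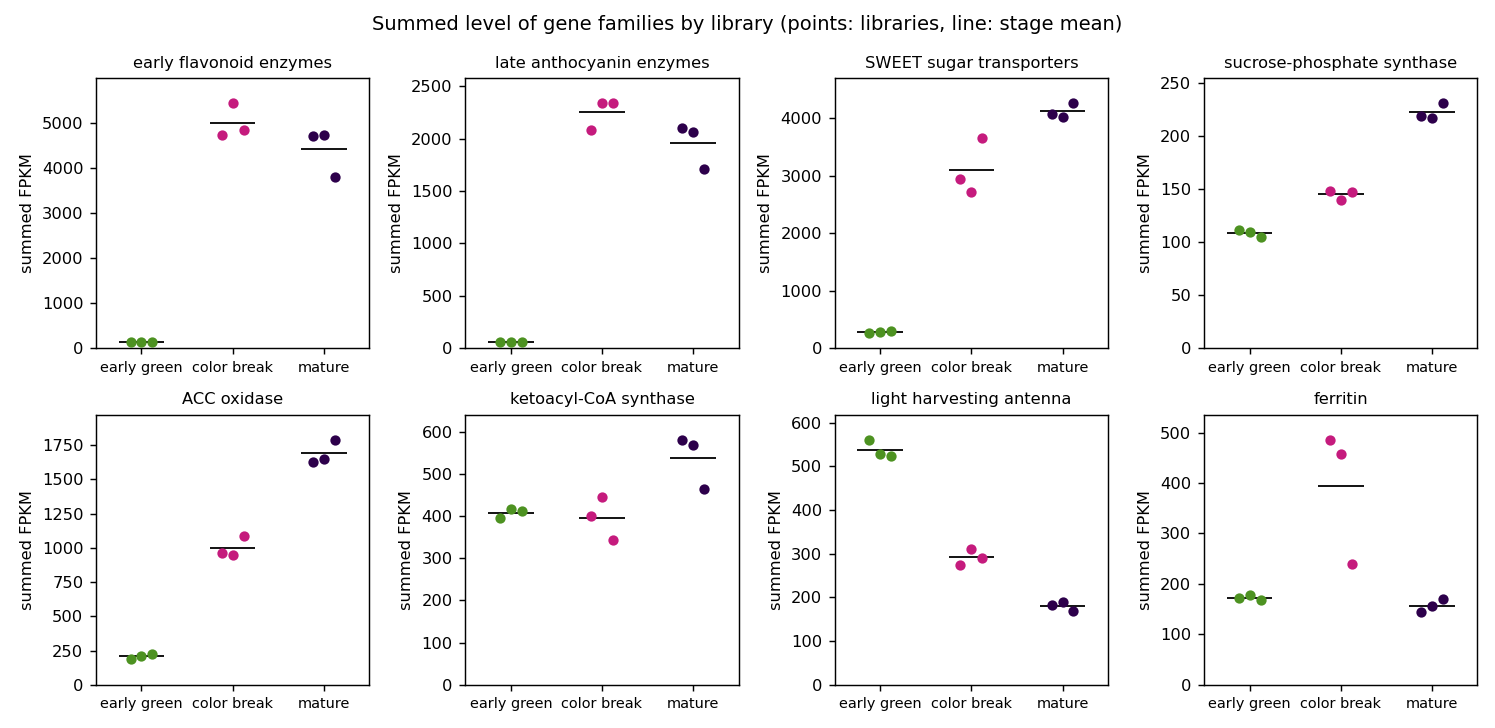
Summed FPKM of 8 gene families in the 9 libraries, with stages on the x axis, points for libraries and lines for stage means. Flavonoid and late anthocyanin sums are close in color break and mature fruit, SWEET, sucrose-phosphate synthase, ACC oxidase and ketoacyl-CoA synthase sums are higher in every mature library, and antenna and ferritin sums are lower.

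Of the ACC oxidases, which carry out the last step of ethylene synthesis, 5 rose. Of 61 ethylene genes 2 (3.28%, against 0.510% rises among all genes) rose and none fell at 2-fold, both ACC oxidases out of 9 tested, and 5 ACC oxidases rose at the adjusted p alone. With these 5 the ethylene list held 8 rises at the adjusted p alone, which became 3, 4 and 12 without color break replicates 1, 2 and 3 in turn, and 3, 3 and 4 without mature replicates 1, 2 and 3 in turn. It also held 2 falls at the adjusted p alone, which became 2, 0 and 2 without color break replicates 1, 2 and 3 in turn, and 0, 0 and 0 without mature replicates 1, 2 and 3 in turn. At the adjusted p alone 1.62% of all genes tested rose and 2.15% fell. The most abundant ACC oxidase, VaccDscaff191-snap-gene-1.61 (4 exons, bases 123249 to 124548 of scaffold 191), stood at 432, 427 and 500 FPKM at color break and 738, 758 and 812 at maturity, against 93.8, 86.5 and 94.8 in green fruit. Every mature library was well above every color break library, and the log2 change was 0.74 ± 0.08 (adjusted p = 0.0082, and 0.0018 without color break replicate 3), under the 2-fold limit. The 17 annotated ACC oxidase genes summed to 961, 948 and 1089 FPKM at color break and 1625, 1651 and 1789 at maturity (exact p = 0.1, the smallest possible). The 2 called copies are rare: VaccDscaff38-augustus-gene-261.26 stood at 1.82, 1.46 and 0.944 FPKM at color break and 4.11, 5.27 and 8.67 at maturity (2.08 ± 0.35, adjusted p = 0.026). The count of 2 became 0, 0 and 5 without color break replicates 1, 2 and 3 in turn, and 0, 0 and 0 without mature replicates 1, 2 and 3 in turn.

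Other hormone lists held 0 to 2 calls each. None of 104 abscisic acid genes was called (median -0.04), while 2 rose without color break replicate 3, and their most abundant, the 9-cis-epoxycarotenoid dioxygenase VaccDscaff19-processed-gene-310.5, stood at 603, 505 and 456 FPKM at color break and 531, 561 and 632 at maturity. Of 139 auxin genes 2 rose, the SAUR-type gene VaccDscaff23-processed-gene-348.3 from 2.98, 3.28 and 3.93 to 7.78, 6.65 and 7.76 FPKM (1.09 ± 0.20, adjusted p = 0.031) and the GH3-type gene VaccDscaff1050-augustus-gene-0.2 (2.00 ± 0.40, adjusted p = 0.045). The share, 1.44%, is near the 0.910% of all genes called. This pair became 0, 0 and 3 without color break replicates 1, 2 and 3 in turn, and 0, 0 and 0 without mature replicates 1, 2 and 3 in turn. Of 11 gibberellin and cytokinin genes 1 rose, the gibberellin 3-beta-dioxygenase VaccDscaff28-augustus-gene-99.17, from 1.73, 1.48 and 1.65 to 2.96, 3.12 and 3.9 FPKM (1.02 ± 0.15, adjusted p = 0.018). That count of 1, 9.09% of a short list, became 0, 0 and 1 without color break replicates 1, 2 and 3 in turn, and 0, 0 and 0 without mature replicates 1, 2 and 3 in turn.

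Among transcription factors 4 MADS-box genes rose and 3 ethylene response factor genes fell. Of 40 MADS-box genes, a family that holds several ripening regulators, 4 rose and none fell, while the median was 0.07. The 4 carry 3 descriptions, and 0.510% of all genes tested rose. VaccDscaff35-augustus-gene-281.33 (6 exons, bases 28123945 to 28127983 of scaffold 35) stood at 0.406, 0.988 and 0.774 FPKM at color break and 6.59, 2.21 and 8.18 at maturity, with mature replicate 2 far below the others, and at 11.4, 8.33 and 11.8 in green fruit (2.90 ± 0.55, adjusted p = 0.04). It lost its call without any one library but mature replicate 2 (adjusted p up to 0.12). Its copy VaccDscaff4-snap-gene-386.43 went from 0.428, 0.485 and 0.878 to 5.33, 2.39 and 6.72 FPKM (2.97 ± 0.46, adjusted p = 0.022). The 4 became 1, 1 and 4 without color break replicates 1, 2 and 3 in turn, and 0, 2 and 1 without mature replicates 1, 2 and 3 in turn. The most abundant MADS-box gene, VaccDscaff32-augustus-gene-276.18, stood at 129, 123 and 86.7 FPKM at color break and 90.3, 86.3 and 91.1 at maturity and was not called.

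Of 78 ethylene response factor genes 3 fell and none rose (median -0.16), all 3 with 1 description. They are 3.85% of the list, against 0.400% falls among all genes tested. VaccDscaff28-augustus-gene-73.20 (2 exons, bases 7374718 to 7376234 of scaffold 28) stood at 23.7, 20.6 and 28.7 FPKM at color break and 9.54, 10.5 and 10.6 at maturity, near its 9.86, 9.94 and 10.9 in green fruit. It fell by 1.27 ± 0.13 on the log2 scale (adjusted p = 0.0076) and kept its call without each library. Its copies VaccDscaff20-augustus-gene-302.16 and VaccDscaff44-augustus-gene-65.21 changed by -1.04 ± 0.14 and -1.02 ± 0.20. The 3 became 2, 3 and 1 without color break replicates 1, 2 and 3 in turn, and 1, 1 and 1 without mature replicates 1, 2 and 3 in turn. None of 16 WRKY genes and none of 15 cell cycle genes was called.

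Cell wall genes moved in both directions. Of 29 tested pectinesterase genes, whose products strip methyl groups from pectin, 3 copies with 1 description (10.3%, against 0.510% rises among all genes) rose, and the median was 0.11. VaccDscaff20-augustus-gene-10.35 (4 exons, bases 1041262 to 1048091 of scaffold 20) stood at 2.79, 2.34 and 3.53 FPKM at color break and 6.66, 6.25 and 8.61 at maturity (1.29 ± 0.18, adjusted p = 0.016). The 3 became 0, 0 and 3 without color break replicates 1, 2 and 3 in turn, and 0, 1 and 1 without mature replicates 1, 2 and 3 in turn. Of 97 other wall loosening genes 2 rose and 2 fell, 4.12% against 0.910% of all genes called. The rises were the expansin VaccDscaff4-augustus-gene-357.23 (3 exons, bases 35703213 to 35706393 of scaffold 4), from 11.7, 11.8 and 7.88 to 26.2, 24.9 and 30.9 FPKM (1.37 ± 0.17, adjusted p = 0.012), and the xyloglucan endotransglucosylase VaccDscaff52-augustus-gene-15.38, from 1.91, 1.9 and 3.45 to 7.51, 8.74 and 15.3 FPKM (2.09 ± 0.37, adjusted p = 0.039). The expansin lost its call only without mature replicate 1, the endotransglucosylase without any one library but color break replicate 3.

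A second xyloglucan endotransglucosylase had the largest fall of all called genes. VaccDscaff19-augustus-gene-326.39 (4 exons, bases 32652855 to 32655927 of scaffold 19) stood at 5.14, 7 and 8.13 FPKM at color break, 0.135, 0.507 and 0.953 at maturity and 9.31, 8.66 and 5.57 in green fruit. Its log2 change was -3.67 ± 0.60 (adjusted p = 0.035), a call lost without any one color break library or mature replicate 2. The other fall was VaccDscaff31-snap-gene-261.40, named as a xyloglucan endotransglucosylase/hydrolase, from 6.33, 6.08 and 6.23 to 3.06, 3.32 and 2.86 FPKM. The rises of this list became 1, 1 and 3 without color break replicates 1, 2 and 3 in turn, and 0, 1 and 1 without mature replicates 1, 2 and 3 in turn, and the falls 1, 1 and 4 without color break replicates 1, 2 and 3 in turn, and 2, 1 and 1 without mature replicates 1, 2 and 3 in turn. None of 29 polygalacturonase and pectate lyase genes was called at 2-fold. The most abundant, the pectate lyase VaccDscaff17-augustus-gene-294.21, went from 2025, 2041 and 2165 to 1659, 1584 and 1718 FPKM, a fall of 0.35 ± 0.06 on the log2 scale at the adjusted p alone (adjusted p = 0.028). The lyase missed the threshold without any one library but color break replicate 3 (adjusted p of 0.062 to 0.12). The list's 3 falls at the adjusted p alone became 0, 0 and 4 without color break replicates 1, 2 and 3 in turn, and 0, 0 and 0 without mature replicates 1, 2 and 3 in turn.

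Of the antenna genes 14 fell and of the photosynthesis pathway 18, mostly by less than 2-fold. None of 31 light-harvesting antenna genes was called at 2-fold, yet 14 fell and none rose at the adjusted p alone, with a median log2 change of -0.71. At the adjusted p alone 2.15% of all genes tested fell. Those 14 became 8, 5 and 13 without color break replicates 1, 2 and 3 in turn, and 4, 5 and 5 without mature replicates 1, 2 and 3 in turn. The most abundant, VaccDscaff19-processed-gene-195.7 (1 exon, bases 19554613 to 19555419 of scaffold 19), stood at 67, 76.3 and 65.9 FPKM at color break, 37.6, 43.1 and 37.3 at maturity and 33.2, 30.8 and 33.1 in green fruit (-0.84 ± 0.09, adjusted p = 0.0079). All antenna genes together summed to 274, 310 and 290 FPKM at color break and 183, 190 and 169 at maturity, against 561, 529 and 524 in green fruit (exact p = 0.1, the smallest possible).

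Of 91 genes of the photosynthesis pathway 3 fell at 2-fold and 18 at the adjusted p alone, with none rising (median -0.36). The 3 are 3.3% of the list, while among all genes 0.400% fell at 2-fold and 2.15% at the adjusted p alone. VaccDscaff6-augustus-gene-30.20 (14 exons, bases 3056202 to 3065111 of scaffold 6), assigned to the PsbR subunit of photosystem II, fell from 9.7, 12.2 and 12.2 to 5.37, 5.51 and 5.01 FPKM and stood at 31.6, 31.2 and 29.2 in green fruit. Its log2 change was -1.12 ± 0.11 (adjusted p = 0.0059), and it kept its call without each library. The 3 falls became 1, 1 and 2 without color break replicates 1, 2 and 3 in turn, and 1, 1 and 1 without mature replicates 1, 2 and 3 in turn, and the 18 became 11, 3 and 17 without color break replicates 1, 2 and 3 in turn, and 3, 3 and 3 without mature replicates 1, 2 and 3 in turn. None of 28 chlorophyll and 34 carotenoid genes was called at 2-fold. One gene annotated with photosystem and photoprotection terms rose instead: VaccDscaff35-augustus-gene-34.47 (3 exons, bases 3323163 to 3324222 of scaffold 35) went from 4.24, 4.84 and 2.18 to 25.7, 21.2 and 17.4 FPKM (2.49 ± 0.30, adjusted p = 0.012), a call lost without mature replicate 1 or 2.

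Of the phosphate transport and starvation genes 10 rose, a list chosen after its values were seen. Of 167 tested genes with GO terms for phosphate transport or phosphate starvation, 10 rose and none fell at 2-fold, with a median of 0.10. That is 5.99% of the list, against 0.510% rises among all genes tested. Of 8 tested genes for plasma membrane phosphate symporters 4 rose, all copies of 1 description. VaccDscaff5-processed-gene-73.2 (1 exon, bases 7334566 to 7336176 of scaffold 5) stood at 2.67, 3.82 and 2.83 FPKM at color break, 14, 9.68 and 19.6 at maturity and 9.23, 7.59 and 8.59 in green fruit. Mature replicate 2 was the lowest of its stage but still well above all color break libraries, and the log2 change was 2.19 ± 0.28 (adjusted p = 0.017). This call was lost without color break replicate 1 or 2 or mature replicate 1. VaccDscaff8-processed-gene-299.8 rose by 2.11 ± 0.26 (adjusted p = 0.014), and lost its call without color break replicate 1 or mature replicate 1. The transporter VaccDscaff27-augustus-gene-313.28 (12 exons, bases 31368308 to 31373449 of scaffold 27), of a family annotated for sulfate transport that in rice and Arabidopsis also holds phosphate carriers, rose from 0.956, 1.45 and 1.58 to 7.99, 6.03 and 6.37 FPKM (2.33 ± 0.21, adjusted p = 0.0056) and kept its call without each library. A sulfolipid synthase gene, VaccDscaff1-augustus-gene-148.23, rose by 1.20 ± 0.25 (adjusted p = 0.042) from 1.11, 0.771 and 1.3 to 3.08, 2.38 and 1.95 FPKM. The 10 became 4, 5 and 9 without color break replicates 1, 2 and 3 in turn, and 2, 7 and 5 without mature replicates 1, 2 and 3 in turn.

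Among ferritin genes 5 fell. Ferritin stores iron in plastids, and its genes were also picked after their values were seen. Of 11 tested genes 5 (45.5%, against 0.400% falls among all genes) fell and none rose, with a median of -1.45. VaccDscaff29-augustus-gene-121.23 (8 exons, bases 12105097 to 12108046 of scaffold 29) stood at 8.96, 9.2 and 6.61 FPKM at color break, 1.98, 2.26 and 2.67 at maturity and 9.69, 9.91 and 9.67 in green fruit. It fell by 1.86 ± 0.18 on the log2 scale (adjusted p = 0.006) and kept its call without each library. The most abundant, VaccDscaff27-augustus-gene-15.34 (9 exons, bases 1497711 to 1502656 of scaffold 27), stood at 219, 200 and 114 FPKM at color break and 69.3, 73.3 and 81.4 at maturity, against 44.5, 48.4 and 43.1 in green fruit. Color break replicate 3 was far below the other color break libraries, and the change of -1.27 ± 0.24 did not pass (adjusted p = 0.052), while without that library it was -1.50 (adjusted p = 0.00094). All 15 annotated genes summed to 486, 458 and 240 FPKM at color break and 145, 156 and 170 at maturity (exact p = 0.1, the smallest possible). The 5 falls became 3, 2 and 8 without color break replicates 1, 2 and 3 in turn, and 2, 2 and 2 without mature replicates 1, 2 and 3 in turn.

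**Figure D4:**
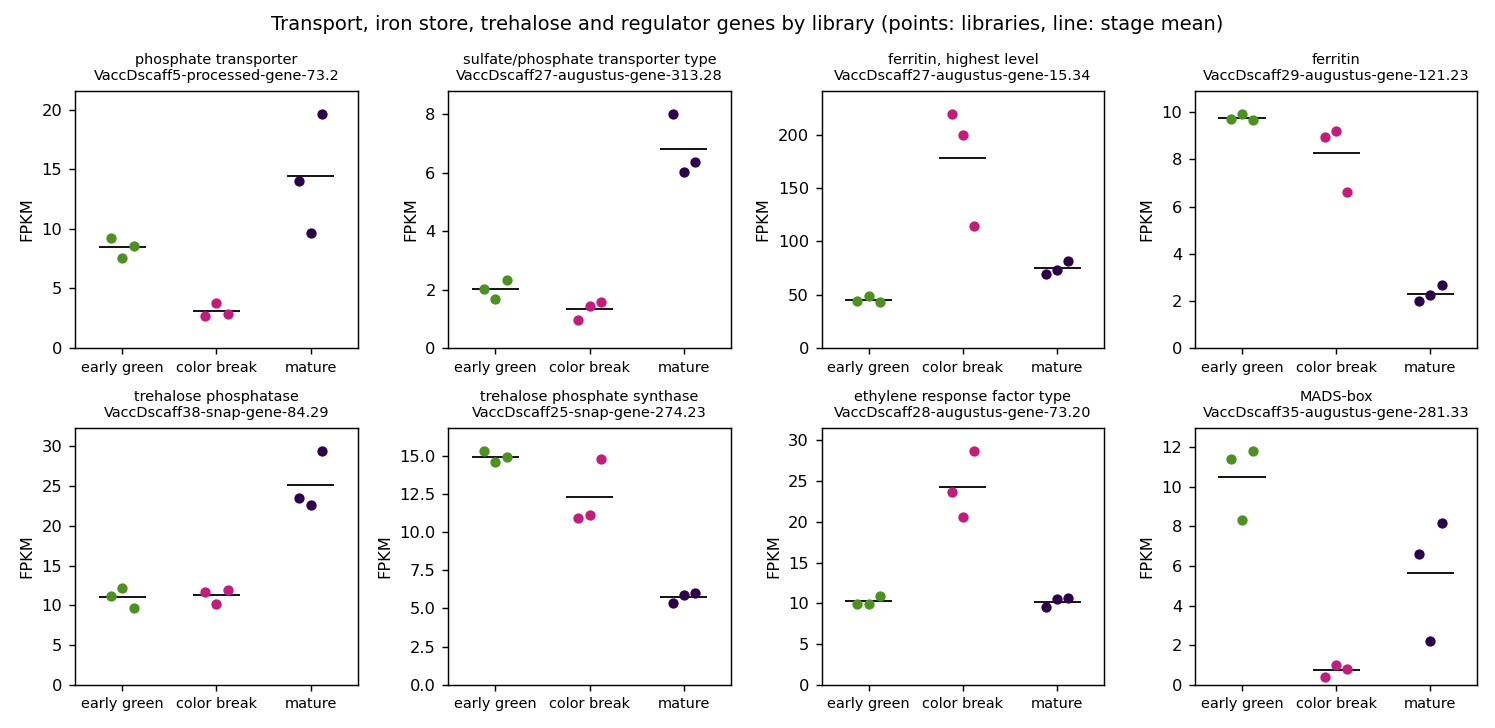
FPKM of 8 genes for transport, iron storage, trehalose metabolism and regulation in the 9 libraries, with stages on the x axis, points for libraries and lines for stage means. The transporters, the phosphatase and the MADS-box gene are higher in all mature than in all color break libraries, and the ferritins, the synthase and the ethylene response factor are lower.

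In a pair of amine and nitrogen families, likewise picked after their values were seen, 3 genes each rose. Of 5 tested genes for adenosylmethionine decarboxylase, which commits to polyamine synthesis, 3 copies with 1 description (60.0%, against 0.510% rises among all genes) rose. The highest of them, VaccDscaff38-snap-gene-17.31, went from 1.63, 1.72 and 1.3 to 3.55, 3.13 and 4.98 FPKM (1.31 ± 0.20, adjusted p = 0.018). The most abundant member, VaccDscaff7-augustus-gene-335.28, stood at 86.4, 83.1 and 63.1 FPKM at color break and 94.9, 97.6 and 98.9 at maturity and did not pass (0.31 ± 0.11, adjusted p = 0.17). These 3 became 0, 0 and 2 without color break replicates 1, 2 and 3 in turn, and 0, 1 and 1 without mature replicates 1, 2 and 3 in turn. Of 6 glutamate dehydrogenase genes 3 copies rose, with VaccDscaff10-augustus-gene-119.40 going from 1.4, 1.54 and 0.852 to 3.16, 3.22 and 4.43 FPKM (1.49 ± 0.24, adjusted p = 0.022). These 3 became 0, 0 and 2 without color break replicates 1, 2 and 3 in turn, and 0, 1 and 1 without mature replicates 1, 2 and 3 in turn.

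Genes with the nutrient reservoir term or a seed storage name, chosen as a list for seed tissue, together made up a smaller share than in green fruit in both stages. They took 0.348% to 0.518% of counts in the 6 libraries against 4.70% to 5.57% in green fruit, and color break replicate 3 held the 0.518%. The most abundant in both stages, VaccDscaff22-snap-gene-146.27, of a domain shared by lipid transfer and seed storage proteins, did not follow the list: it stood at 936, 877 and 837 FPKM at color break and 763, 819 and 894 at maturity, above its 485, 438 and 448 in green fruit. Of 53 tested 1 rose and 4 fell, 9.43% against 0.910% of all genes called. The 4 falls share 1 description and the KEGG ortholog of lipocalins, small lipid carriers, with GO terms for seed maturation and heat response beside nutrient reservoir. VaccDscaff81-augustus-gene-6.34 (2 exons, bases 587470 to 590009 of scaffold 81) stood at 60.9, 64 and 41.2 FPKM at color break, 25.1, 25.1 and 27.8 at maturity and 103, 105 and 109 in green fruit (-1.11 ± 0.16, adjusted p = 0.018). Its largest-falling relative was VaccDscaff74-augustus-gene-2.38, from 22, 26.2 and 15.1 to 9.63, 8.71 and 5.8 FPKM (-1.41 ± 0.26, adjusted p = 0.04). Both lost their call without any one library but color break replicate 3, and the 4 falls became 0, 0 and 5 without color break replicates 1, 2 and 3 in turn, and 0, 0 and 0 without mature replicates 1, 2 and 3 in turn. Of 15 oil body and late embryogenesis genes 2 copies named late embryogenesis abundant protein 46-like fell. That is 13.3% of a short list, against 0.400% falls among all genes. VaccDscaff26-augustus-gene-358.26 (2 exons, bases 35823138 to 35825014 of scaffold 26) stood at 13.1, 13.2 and 10.2 FPKM at color break and 3.62, 3.71 and 5.03 at maturity (-1.58 ± 0.16, adjusted p = 0.0078), and it kept its call without each library. The 2 falls became 1, 1 and 2 without color break replicates 1, 2 and 3 in turn, and 1, 1 and 1 without mature replicates 1, 2 and 3 in turn. The part of seed content in these falls was not tested.

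Among the 6 libraries compared, the defence gene sum stood highest in color break replicate 3, above every mature library, and lowest in the other color break libraries. Of 31 defence genes 1 rose and 1 fell, 6.45% against 0.910% of all genes called, and 22 had a negative log2 change. Their summed FPKM was 3310, 3348 and 7784 at color break, 4312, 4310 and 4332 at maturity and 2464, 2344 and 2309 in green fruit. Most of it came from KEGG ortholog K20547, at 3183, 3172 and 7481 FPKM at color break and 4106, 4071 and 4139 at maturity. K13449 did not follow it, at 49.2, 92.8 and 110 and 35, 53.1 and 45.2 FPKM, nor did K01183, at 18.6, 19.4 and 20.9 and 15.5, 18.3 and 15.8 FPKM. The most abundant defence gene, the chitinase VaccDscaff41-processed-gene-264.23, stood at 1060, 1021 and 2342 FPKM at color break and 1325, 1270 and 1310 at maturity (-0.20 ± 0.36, adjusted p = 0.81). The chitinase VaccDscaff32-snap-gene-66.30 rose from 6.94, 10.2 and 7.84 to 19.1, 13.7 and 20.4 FPKM (1.07 ± 0.19, adjusted p = 0.035), and VaccDscaff23-processed-gene-17.1 fell from 2.3, 4.81 and 8.81 to 1.01, 0.939 and 1.04 FPKM (-2.43 ± 0.48, adjusted p = 0.049). The rises became 1, 0 and 5 without color break replicates 1, 2 and 3 in turn, and 0, 1 and 0 without mature replicates 1, 2 and 3 in turn, and the falls 1, 0 and 2 without color break replicates 1, 2 and 3 in turn, and 0, 0 and 0 without mature replicates 1, 2 and 3 in turn, which does not say which genes. Of 98 heat shock genes 1 rose and 3 fell, 4.08% against 0.910% of all genes called. The fall of VaccDscaff17-augustus-gene-48.23 (3 exons, bases 4883156 to 4888173 of scaffold 17), named heat shock cognate 70 kDa protein 2-like, from 9.71, 10.9 and 8.18 to 4.42, 4.06 and 4.3 FPKM (-1.19 ± 0.11, adjusted p = 0.0059) kept its call without each library. Leaving a library out turned the 3 falls into 2, 1 and 2 without color break replicates 1, 2 and 3 in turn, and 2, 2 and 2 without mature replicates 1, 2 and 3 in turn, and the 1 rise into 0, 1 and 1 without color break replicates 1, 2 and 3 in turn, and 0, 0 and 0 without mature replicates 1, 2 and 3 in turn. Protein turnover genes shifted slightly: of 195 proteasome genes none was called at 2-fold, while 15 rose and 1 fell at the adjusted p alone, with a median of 0.20. Among all genes 1.62% rose and 2.15% fell at the adjusted p alone. The 15 became 6, 2 and 15 without color break replicates 1, 2 and 3 in turn, and 0, 2 and 3 without mature replicates 1, 2 and 3 in turn. Of 814 ribosomal protein genes 1 fell and none rose (median -0.07), and the description of that gene names another enzyme, a deoxyxylulose-phosphate synthase.

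Most called genes lay outside the lists: 58 of the 209 rises and 30 of the 164 falls belonged to any list, and 37 rises and 58 falls had no annotation at all. The lists held 3090 of the 40996 tested genes, so a larger share of called genes than of all tested genes lay in them. However, 5 of the 50 lists were chosen after their values were seen. Of all tested genes 79.4% had a KEGG, GO or protein name annotation. The following were chosen after their values were seen. Thioredoxins, small proteins that reduce disulfide bonds, moved both ways, with 4 copies rising and 1 gene falling of 39, which became 3 rises and 4 falls without color break replicate 3. With all 6 libraries the thioredoxin calls are 12.8% of those tested, against 0.910% of all genes. The most abundant riser, VaccDscaff42-augustus-gene-102.24 (3 exons, bases 10284831 to 10285784 of scaffold 42), stood at 27.4, 21.7 and 14.5 FPKM at color break and 69.8, 66.3 and 71.7 at maturity, well apart (1.69 ± 0.21, adjusted p = 0.016). It lost its call without color break replicate 2 or any one mature library. All 3 tested genes for a plastid desaturase of phosphatidylglycerol, a thylakoid lipid, rose, with VaccDscaff6-processed-gene-43.7 (1 exon, bases 4359452 to 4360426 of scaffold 6) at 33.7, 33.3 and 22.2 FPKM at color break and 73, 70.7 and 62.1 at maturity (1.19 ± 0.16, adjusted p = 0.016). This gene was not called without color break replicate 2 or mature replicate 1 or 2.

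Several single genes of other roles rose. VaccDscaff347-augustus-gene-0.29 (8 exons, bases 9916 to 13742 of scaffold 347), annotated by GO with coniferyl-aldehyde dehydrogenase activity, stood at 4, 2.65 and 2.5 FPKM at color break, 16.1, 15.7 and 15.6 at maturity and 0.34, 0.238 and 0.303 in green fruit (2.36 ± 0.18, adjusted p = 0.0048). A terpene synthase gene, VaccDscaff4-snap-gene-178.35 (7 exons, bases 17849686 to 17853325 of scaffold 4), stood at 6.98, 6.61 and 6.86 FPKM at color break and 15.5, 17.2 and 18 at maturity (1.29 ± 0.08, adjusted p = 0.004), and 0.428, 0.436 and 0.743 in green fruit. All 4 tested copies of a gene with calcium-dependent phospholipid binding, the activity of annexins, rose, with VaccDscaff672-augustus-gene-0.11 (5 exons, bases 759 to 2896 of scaffold 672) at 1.6, 2.28 and 2.23 FPKM at color break and 10.8, 10.9 and 9.04 at maturity (2.30 ± 0.17, adjusted p = 0.004). These 3 genes kept their call without each library. A lipid transport gene, VaccDscaff1-snap-gene-251.29, stood at 13.8, 14.3 and 14.7 FPKM at color break and 51.3, 30.3 and 35.5 at maturity (1.43 ± 0.19, adjusted p = 0.014), and a catalase, VaccDscaff34-snap-gene-170.21, at 21.4, 22.6 and 22.9 FPKM at color break and 51.6, 49.7 and 37.3 at maturity (1.03 ± 0.12, adjusted p = 0.01). The first lost its call without color break replicate 1 or 2, the second without color break replicate 1 or mature replicate 1 or 2. The circadian regulator gene VaccDscaff66-snap-gene-8.50, of the LHY type, rose from 5.68, 5.85 and 4.22 to 11.9, 11.1 and 10.1 FPKM (1.05 ± 0.13, adjusted p = 0.011) and was under the limits without color break replicate 3 or mature replicate 1. The time of day of sampling is not given in the labels.

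Outside the lists, 3 copies with 1 description, annotated as an apoplastic aspartic protease that in Arabidopsis acts in disease resistance, fell. Of 17 tested genes of that ortholog they are 17.6%, against 0.400% falls among all genes, while 14 were not called and none rose. This family was also picked after its values were seen. VaccDscaff32-processed-gene-230.1 (1 exon, bases 23053916 to 23055250 of scaffold 32) stood at 44.7, 37.7 and 65 FPKM at color break, 19.7, 23.5 and 22.2 at maturity and 0.76, 0.43 and 1.21 in green fruit (-1.19 ± 0.21, adjusted p = 0.037). Color break replicate 3 was the highest, and without it the change was -0.93, under 2-fold. The call was also lost without color break replicate 1 or any one mature library. The most abundant falling gene has no annotation: VaccDscaff16-processed-gene-272.6 (3 exons, bases 27205779 to 27206468 of scaffold 16) stood at 210, 221 and 138 FPKM at color break and 63.8, 62.8 and 63.9 at maturity (-1.60 ± 0.17, adjusted p = 0.0096), and lost its call only without mature replicate 1. The largest rise above 10 FPKM was also unannotated, in VaccDscaff27-augustus-gene-294.23 (3 exons, bases 29450853 to 29452721 of scaffold 27), at 0.855, 0.98 and 0.534 FPKM at color break, 13.4, 9.22 and 16.9 at maturity and 17.5, 18.1 and 16.2 in green fruit (4.01 ± 0.31, adjusted p = 0.0046). It kept its call without each library. Of the rising genes, 2 had no counts in any color break library: against 3 counts per library, VaccDscaff11-snap-gene-152.14 was at least 26.7-fold and VaccDscaff22-snap-gene-11.36 at least 13.8-fold higher at maturity.

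**Figure D5:**
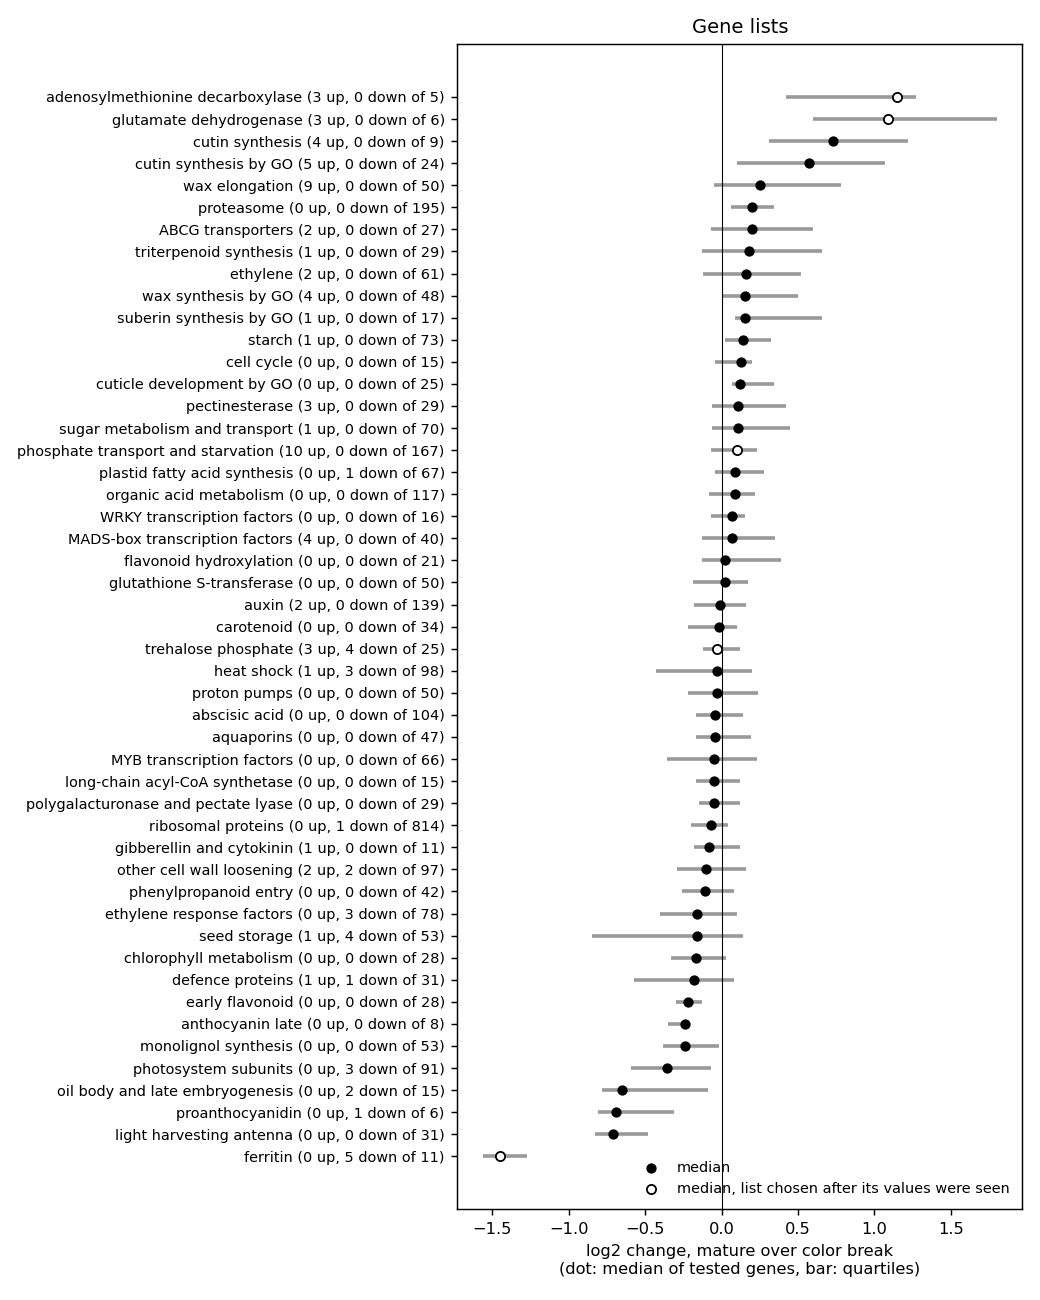
Median log2 change of mature over color break (dots) with quartiles (bars) for the gene lists with at least 5 tested genes, with the numbers called higher and lower in brackets. Most medians lie near 0. Open dots mark lists chosen after their values were seen, among them ferritin at -1.45, adenosylmethionine decarboxylase at 1.15 and glutamate dehydrogenase at 1.09. Of the other lists, cutin synthesis at 0.73, cutin synthesis by GO at 0.57 and wax elongation at 0.25 lie furthest right. Antenna at -0.71, proanthocyanidin at -0.69 and oil body and late embryogenesis at -0.65 lie furthest left of these.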

How the data were processed

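RNA of ground 'Bluecrop' fruit was sequenced on an Illumina NovaSeq. Per the submitters' processing notes fastp, HISAT2, StringTie and DESeq2 were used. Their roles and versions, the genome build and any use of strand were not given in the sources used here. Library text in the labels names a Populus hybrid, while organism and gene names are blueberry. Per the file headers, the deposited table holds an FPKM value and an estimated count for each gene and library. The deposited estimated counts are whole numbers and, up to 5000, equal FPKM times length times a constant per library within 1 count.

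Those counts went into edgeR 4.0.16 (R 4.3.3) with TMM factors of 0.986 to 1.01, a robust quasi-likelihood fit with a stage term alone, and Benjamini-Hochberg adjustment over the 40996 genes, a step tested on simulated data. A log2 change is given with its standard error, the change divided by the square root of the F statistic. DESeq2 1.42.0 and limma 3.58.1, the latter on log2(FPKM + 1) and log2(FPKM + 0.1), were alternatives among others in the closing section. Sums of FPKM were compared by exact permutation in scipy 1.17.1.

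Members and the 50 gene lists (by KEGG ortholog, GO term or name) were chosen with earlier results of these data known, 5 of the lists after their values were seen. The rule for named genes took, from each list, the most abundant gene and the largest called rise and fall with at least 5 FPKM and no overlap between stages. Outside the lists it took up to 10 genes each way with a protein name and at least 10 FPKM, which 2 rises met. Not all most abundant genes are printed, and genes outside the rule were chosen after their values were seen. Protein names cover 6.46% of tested genes, so roles rest mostly on KEGG and GO terms. P-values measure the spread between these samples.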

Additional observations from a re-analysis of the deposited data

How the results depend on the processing

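Of 373 genes called (209 rises, 164 falls), leaving out single libraries gave 95 to 627 calls (50 to 379 rises, 45 to 248 falls). DESeq2 called 636 (371, 265). A mean of at least 5 FPKM left 128 (69, 59) of 17549 genes tested, and summing genes of the same description left 228 (121, 107) of 17665 units. With limma on log2(FPKM + 1) the calls were 175 (109, 66), and with no fold threshold 1549 (666, 883). All 9 libraries in the fit, median-of-ratios factors, library size only, no filter and limma on log2(FPKM + 0.1) gave 317 to 528 calls, within 1.5 times of the count reported. With the replicate block 209 genes were called (116, 93). No label says whether the replicate numbers pair the samples, and 3 libraries a stage cannot settle it. Deviations from the stage mean correlated at 0.022, 0.123 and 0.224 between same-numbered libraries and at -0.181 to 0.124 between the others. Color break replicate 1 correlated best with mature replicate 2 (0.124). Of 45 named called genes, 34 kept their call with the block, 44 with all 9 libraries, 45 with DESeq2 and 19 to 39 without single libraries, with no reversal. Depth limits genes near 0: 2 of the rises had no counts at color break, which leaves only a lower bound on their fold. The cause of each change in the calls was not tested.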
